A study of Caenorhabditis elegans with 8 samples.

Results

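The genes described here are a block of later-numbered WormBase gene IDs of the nematode Caenorhabditis elegans, listed for this series as mostly predicted non-coding RNA genes. Members were the gene IDs from WBGene00195000 to WBGene00202500 that held at least 10 reads summed over all 8 libraries. This gave 44 members, out of 236 gene IDs of the block with any read and 12240 gene IDs with a read in the whole table. The reads are from iCLIP, a method in which ultraviolet light links a protein in living material to the RNA it touches, so that both can be purified together and the RNA sequenced. The protein was FOG-3, which germ cells need to take the sperm fate. The worms were larvae of the fourth larval stage (L4) with a FLAG epitope on FOG-3, carried as a single copy integrated into the genome. The 4 FOG-3 libraries were purified with the FLAG antibody, and the 4 controls came from the same tagged worms taken through the same steps with no antibody. All 8 libraries therefore share the tagged protein, the stage and the lysis by ball milling, and whole larvae were used, so that RNA of germline and body is mixed.

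Non-coding RNA genes make RNA that is not translated into protein. The class holds ribosomal, transfer, small nuclear and small nucleolar RNAs, whose work in translation, splicing and RNA modification is well known, beside many transcripts that were predicted from expression or conservation and have no known function. The deposited table gives gene IDs alone. None (0) of them could be matched to the RefSeq gene table used as reference, so the non-coding class of the block was not checked, and positions, sequences, symbols and roles of its members are not used here. Members are numbered by their total reads, from member 1 (most reads) to member 44, and 3 of them are also named by ID. In such libraries the amount of an RNA in the worms and the share of it recovered cannot be told apart.

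The FOG-3 libraries are named by the tag of their column, TGGC with 186739 gene-assigned reads, GGTT with 76790, CGGA with 80529 and GGCA with 97054. The controls are AATA with 30631, TTGT with 74892, TTAA with 14964 and CCGG with 18676. Values of single libraries are given in this order throughout. FOG-3 libraries held 76.0% of all these reads, so a limit on total reads weighs them more. Libraries were scaled by TMM (trimmed mean of M values, a factor per library that takes most gene IDs as unchanged). The factors were 1.47 to 1.66 with FOG-3 and 0.593 to 0.716 without antibody, which lowers folds of FOG-3 over control against those with total counts. After this scaling, 1 read was worth 3.58 to 8.43 CPM (reads scaled to library size) with FOG-3 and 18.6 to 112.6 CPM without antibody. A count of 0 allows up to 3 reads, which is 10.8 to 25.3 CPM with FOG-3 and 55.9 to 337.8 CPM without antibody. The control TTGT alone gave 53.8% of all control reads and 60.9% of the control reads of the members.

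The 44 members held 3105 reads, of which 2461 (79.3%) came from FOG-3 libraries and 644 from controls. Reads were concentrated in few members. Member 1 held 822 reads (26.5% of all member reads), the 5 members with the most reads held 55.9%, and the median member held 23.5 reads. Below 30 reads in total lay 25 members, and 7 had 100 or more. In the lowest part of the block, numbers 195000 to 196499, lay 15 members with 40.4% of the member reads, and in the next 1500 numbers 8 members with 34.8%. The 9, 7 and 5 members of the following bins of that width held 7.50%, 11.8% and 5.51%. Reads were found in all 4 FOG-3 libraries for 37 members and in all 4 controls for 7.

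The limit of 10 reads chose the members, and the gene IDs on both sides of it were sparse. The 6 members with 10 or 11 reads held 60 reads with FOG-3 and 2 without antibody. The 2 gene IDs just outside, with 8 or 9 reads, held 17 and 1. The 192 gene IDs of the block under the limit held 290 reads with FOG-3 and 23 without antibody. They made up 0.0624% ± 0.0187 (SD, n = 4) of the reads with FOG-3 and 0.0139% ± 0.0098 without antibody. Of them 170 (88.5%) were seen with FOG-3 alone and 13 with controls alone. With any number of reads, 78.4% of the block's 236 gene IDs were seen with FOG-3 alone, against 56.0% of all 12240. In the whole table this share was 24.4% among gene IDs with at least 10 reads, so it varies with reads. Reads were not matched here, and the difference was not tested.

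As a share of gene-assigned reads the block was larger with FOG-3, by a narrow margin with its largest member and a wider one without it. The members together held 0.538%, 0.619%, 0.585% and 0.527% of the reads in the FOG-3 libraries. In the controls they held 0.313%, 0.523%, 0.441% and 0.482%. The lowest FOG-3 library (95% exact Clopper-Pearson interval 0.482% to 0.574%) and the highest control (0.473% to 0.578%) lay next to each other. The means were 0.567% ± 0.043 and 0.440% ± 0.091 (SD, n = 4), a ratio of 1.29. No test was made on this sum, because the members were chosen by their reads.

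Member 1 ran against the sum of the others. It held 0.114% ± 0.028 (SD, n = 4) of the reads with FOG-3 and 0.230% ± 0.080 without antibody, a ratio of 0.494. The groups overlapped in this share, with 0.121% in the control AATA and 0.140% in CGGA. Of the member reads, member 1 made up 14.9% to 24.7% with FOG-3 and 38.5% to 63.3% without antibody, with no overlap. The other 43 members held 0.453% ± 0.045 and 0.210% ± 0.058, a ratio of 2.16, and here the lowest FOG-3 library (0.405%) stood above the highest control (0.295%).

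The direction of the summed share depended on the total it was taken over. When the total was counted without the 10 gene IDs of most reads in the table, the members held 0.981% ± 0.130 with FOG-3 and 1.99% ± 0.52 without antibody (SD, n = 4), and every control lay above every FOG-3 library. Without member 1 as well, the means were 0.783% ± 0.102 and 0.919% ± 0.085, and the groups overlapped. A share of all reads and a share of the rest thus order the groups differently.

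**Figure D1:**
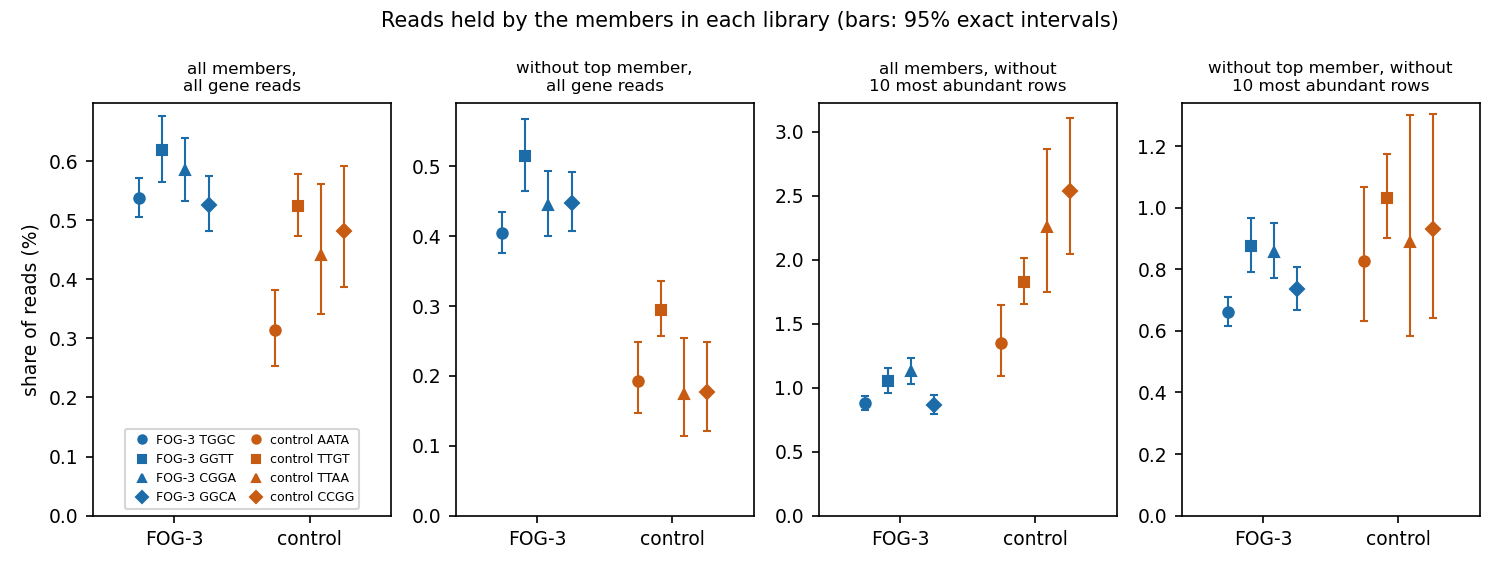
Share of reads held by the block's members in each library, in percent, with 95% exact binomial intervals that cover counting error only. The panels show, from left to right, all members over all gene-assigned reads, the members without member 1, and both again over a total without the 10 gene IDs of most reads. The FOG-3 libraries lie above the controls in the first and second panels (0.527% to 0.619% against 0.313% to 0.523% in the first), below them in the third, and overlap with them in the fourth.

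The main comparison asks which members were recovered with FOG-3 above or below the control level. It was fitted with edgeR's quasi-likelihood test on the whole table with TMM scaling, and a gene ID counted as changed when its Benjamini-Hochberg adjusted p was below 0.05. Only 11 of the 44 members passed the filter on low counts, and 886 gene IDs did in all. Of these 11 members, 1 rose in the FOG-3 libraries and 6 fell, while 4 missed the threshold. Of all tested gene IDs 45.3% were higher and 27.5% lower. The members that passed the filter had 70 to 822 reads, and the 33 that did not had at most 79. The filter asked for a set CPM, before TMM, in as many libraries as a group holds. This takes fewer reads in the shallower controls. Member 10, with 75 reads with FOG-3 and 4 in controls, did not pass. Members 11 and 12, with 52 and 49 reads with FOG-3 and 25 and 21 in controls, did. The 11 are thus mostly abundant members. Members 11 and 12 passed only with the help of their control reads, while the others passed on their FOG-3 libraries alone. The split of calls describes these 11 members and not the block.

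The split moved with the scaling, for the members as for the whole table. With total counts 3 of the 11 rose and 2 fell, against 67.3% and 9.48% of all tested gene IDs. With the size factors of DESeq2 in edgeR and with DESeq2 itself 3 rose and 2 fell too, against 66.4% and 10.4%, and 63.4% and 9.82%, of all. With each library set level on the gene ID that has the most reads in the table (called top-ID scaling here) 6 rose and 0 fell (6 of the 11 had an unadjusted p under 0.05), against 79.7% and 0.677% of all. Without the control TTGT, and with TMM, 2 of 13 tested members rose and 2 fell, against 51.8% and 10.8% of all. Without CGGA 3 of 13 rose and 5 fell, against 53.5% and 19.6%, and without TTAA 2 of 13 rose and 5 fell, against 45.1% and 19.0%. With every library thinned to equal depth 1 member was tested and did not pass, where 34.4% of 93 gene IDs were higher and 2.15% lower.

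The median log2 fold change of the 11 tested members was -0.75 and that of all 886 tested gene IDs 0.74 with TMM. Both medians moved up together, to 0.48 and 1.94 with total counts and to 1.24 and 2.68 under top-ID scaling. Of the 11 members, 10 lay below the median of all tested gene IDs under each of these 3 scalings. With limma-voom and with DESeq2's own test 9 did. This gap is that of the members that passed the filter. With all 44 members in a fit of every gene ID with at least 10 reads, the medians were 1.10 for the members and 1.17 for all, and 23 of 44 lay below. The CPM of the groups did not overlap for 1 member that was higher and 5 that were lower, where 43.5% of all tested gene IDs were higher and 21.1% lower without overlap. For members 6 and 11, among the lower ones, the gap rests on 1 read in TTAA. That read is 112.6 CPM, against at most 109.8 CPM with FOG-3.

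**Figure D2:**
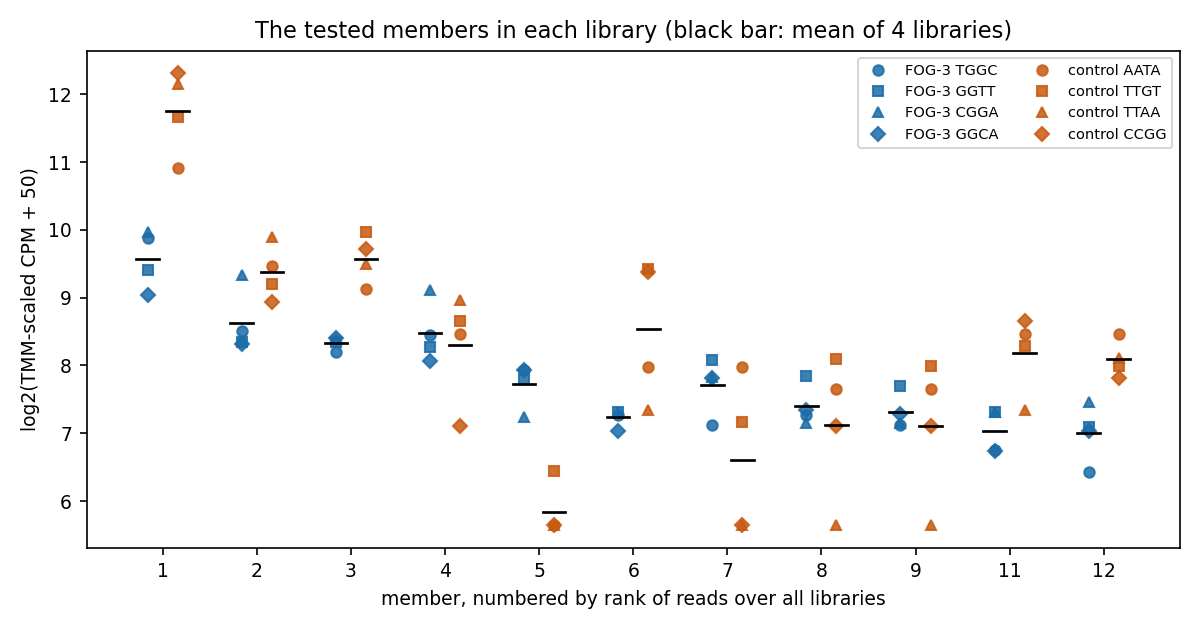
Level of each of the 11 tested members in each library, as log2(TMM-scaled CPM + 50), with blue symbols for FOG-3 libraries, orange symbols for controls and a black bar at the mean of 4 libraries. Member 5 stands higher in all FOG-3 libraries, members 1, 3, 6, 11 and 12 stand lower in all of them, and the other 5 overlap. For members 6 and 11 the gap rests on 1 read in TTAA, at 112.6 CPM against at most 109.8 CPM with FOG-3. The orange symbols at the lower edge are controls with 0 reads. A count of 0 there allows up to 152.1 to 337.8 CPM, so member 5 is not resolved from these controls taken singly.

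The member that rose was WBGene00195175, member 5. It had 54, 22, 12 and 31 reads in the FOG-3 libraries, and 2 reads in the control TTGT with none (0) in the other controls. Every FOG-3 library, at 101.1 to 194.3 CPM, was above every control, the highest of which had 37.3 CPM. The counts of 0, however, allow up to 152.1 CPM in AATA, 337.8 CPM in TTAA and 264.4 CPM in CCGG. These limits lie within or above the FOG-3 values, so the separation is not resolved for those controls taken singly. The means were 165.4 ± 44.0 CPM with FOG-3 and 9.32 ± 18.64 CPM without antibody (SD, n = 4). On the log2 scale it rose by 2.93 ± 0.74 (SE, 4 libraries per group, edgeR adjusted p = 0.000157). The pooled reads gave a fold of 8.13, with an exact 95% counting interval of 2.20 to 67.9, or 18.8 (5.08 to 156.8) with total counts. It was called higher in 18 of 18 other fits that tested it, and in 3 of 3 further fits added after seeing the data. These fits reuse the same counts and are not independent support. With the default filter it entered the test through its FOG-3 reads alone, the group in which it is high.

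Member 1, WBGene00197433, fell with TMM scaling. It had 248, 80, 113 and 76 reads in the FOG-3 libraries and 37, 171, 40 and 57 in the controls. This is 736.1 ± 223.2 CPM with FOG-3 and 3648 ± 1412 CPM without antibody (SD, n = 4). The groups did not overlap after TMM, while the shares of gene-assigned reads did. Its change was -2.23 ± 0.21 on the log2 scale (SE, adjusted p = 3.9e-24 in edgeR). It was -0.97 ± 0.21 with total counts (adjusted p = 1.0e-05). Under top-ID scaling it was -0.16 ± 0.26 and did not pass (adjusted p = 0.59). For every 1000 reads of the gene ID used for this scaling there were 4.11 ± 1.11 reads of WBGene00197433 with FOG-3 and 4.61 ± 1.41 without antibody (SD, n = 4), a difference smaller than the spread between libraries.

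WBGene00195245, member 6, had a change of nearly the same size. It had 29, 14, 13 and 13 reads in the FOG-3 libraries and 4, 34, 1 and 7 in the controls. FOG-3 libraries were even, at 101.2 ± 13.4 CPM, while controls ran from 112.6 to 633.7 CPM with a mean of 391.5 ± 272.6 (SD, n = 4). The lowest control, TTAA, had 1 read. The change was -2.21 ± 0.35 on the log2 scale with TMM (SE, adjusted p = 1.7e-09 in edgeR) and -0.98 ± 0.35 with total counts (adjusted p = 0.0066). It was -0.19 ± 0.37 under top-ID scaling (adjusted p = 0.64). Without the control TTGT, which gave 34 of its 46 control reads, it was -0.97 and did not pass with TMM (edgeR adjusted p = 0.093).

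The other 4 members that fell with TMM, members 2, 3, 11 and 12, lost the call under total counts. Member 3 had 68, 35, 34 and 46 reads in the FOG-3 libraries and 10, 51, 6 and 9 in the controls. Its level was even among FOG-3 libraries, at 273.2 ± 20.6 CPM, against 731.6 ± 187.4 CPM without antibody (SD, n = 4). Its change on the log2 scale was -1.53 ± 0.27 with TMM (SE, edgeR adjusted p = 1.1e-07), -0.28 with total counts (adjusted p = 0.35) and 0.49 under top-ID scaling (adjusted p = 0.15).

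Members 11 and 12 were close to each other in reads and in level. Member 11 had 16, 14, 13 and 9 reads in the FOG-3 libraries and 6, 14, 1 and 4 in the controls, and member 12 had 10, 11, 15 and 13, and then 6, 11, 2 and 2. Their changes on the log2 scale were -1.79 ± 0.38 and -1.62 ± 0.39 (SE) with TMM. These turned to 0.20 and 0.37 under top-ID scaling, where neither passed. Without the control TTGT member 11 just passed with TMM (edgeR adjusted p = 0.044), while members 12, 3 and 2 did not (adjusted p = 0.067, 0.15 and 0.55).

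Members 2 and 4 carry consecutive IDs, and no other members do. Member 2 had 88, 35, 71 and 43 reads in the FOG-3 libraries and 13, 29, 8 and 5 in the controls. Member 4 had 84, 33, 60 and 35 reads in the FOG-3 libraries and 6, 19, 4 and 1 in the controls. Both stood highest in CGGA among FOG-3 libraries, at 598.2 and 505.6 CPM. The reads of member 4 were 0.814 to 0.955 times those of member 2 with FOG-3 and 0.200 to 0.655 times without antibody, so that this ratio did not overlap between the groups. The lowest ratio, in CCGG, rests on 1 read of member 4 against 5 of member 2. The pair was noticed in the counts, and the ratio was not tested.

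These neighbours in number differed in their calls. Member 2 had a log2 fold change of -0.75 ± 0.28 with TMM (SE, edgeR adjusted p = 0.013) and 0.48 with total counts (adjusted p = 0.12). Under top-ID scaling it passed as higher, at 1.24 ± 0.33 (adjusted p = 0.00025). Member 4 was at -0.0040 ± 0.33 with TMM (adjusted p = 0.99). It passed as higher with total counts, at 1.21 ± 0.34 (adjusted p = 0.00064), and under top-ID scaling, at 1.96 ± 0.37. Whether the pair lies side by side in the genome or shares reads was not tested.

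The 3 further members without a call with TMM were members 7, 8 and 9. Member 7 had 25, 28, 21 and 28 reads in the FOG-3 libraries and 4, 5, 0 and 0 in the controls. Its log2 fold change was 0.69 ± 0.51 with TMM (edgeR adjusted p = 0.21), and with total counts it passed at 1.90 ± 0.48 (adjusted p = 0.00013). Member 8 had 29, 23, 11 and 18 reads in the FOG-3 libraries and 3, 12, 0 and 1 in the controls. Member 9 had 25, 20, 11 and 17, and then 3, 11, 0 and 1, so that the pair differed by at most 4 reads in any library. Both had no call with TMM or total counts and passed as higher under top-ID scaling, with log2 fold changes of at least 1.42.

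Such likeness between count profiles was common in the table. The closest profile to a member with at least 50 reads differed from it by a median of 4.90% of their reads, over 16 members, and by at most 10% for 14 of them. Among all 1460 gene IDs with at least 50 reads the median was 4.29%, and 96.6% had such a partner within 10%. Exactly equal counts in all 8 libraries were found for 5 members, each with 10 to 12 reads and each with partners outside the block. Among gene IDs outside the block with 10 to 12 reads, 37.6% had such a partner, and among the 11 members with 10 to 12 reads 45.5% did.

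**Figure D3:**
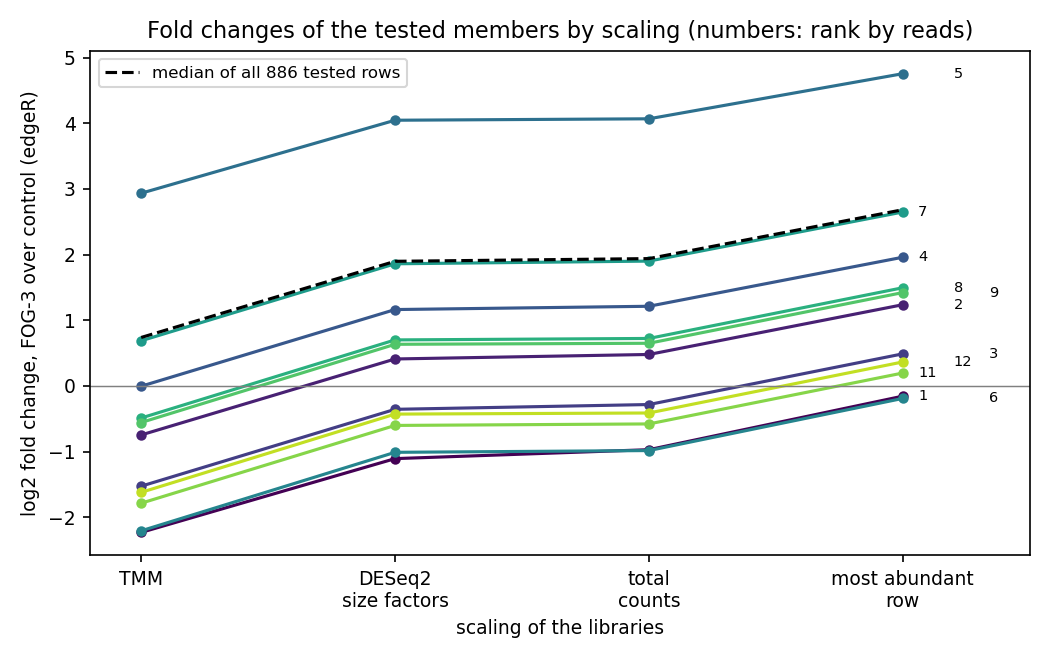
Fold changes of the 11 tested members (log2, FOG-3 over control, edgeR) under 4 scalings of the libraries, each line a member numbered by its rank of reads, and the dashed line the median of all 886 tested gene IDs. All lines climb together from TMM to top-ID scaling (marked as most abundant row on the axis), where the dashed line goes from 0.74 to 2.68, and the line of member 5 is the one that stays above it.

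The 33 untested members, which had at most 79 reads each, had 94.6% of their reads in FOG-3 libraries, 767 there against 44 in controls. As a share of gene-assigned reads they made up 0.176%, 0.208%, 0.120% and 0.188% in the FOG-3 libraries and 0.0131%, 0.0441%, 0.0267% and 0.0161% in the controls. The means differed by a ratio of 6.93. The 11 tested members, in contrast, held 0.394% ± 0.056 with FOG-3 and 0.415% ± 0.081 without antibody (SD, n = 4), and these overlapped. A limit on total reads favours sparse gene IDs that are seen in the deeper FOG-3 libraries. The filter that parted tested from untested members asked for fewer reads in the shallower controls. These shares therefore describe the members and are not evidence about the block.

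Of the 44 members, 15 had no read in any control, 15 had 1 to 3 control reads in all and 14 had 4 or more. Seen with FOG-3 alone were thus 34.1% of the members and 24.4% of all 4505 gene IDs with at least 10 reads. By reads, it was 52.6% of the members with 10 to 19 reads against 37.4% of the gene IDs outside the block, 55.6% against 24.6% with 20 to 49 reads, and 0% against 10.5% from 50 reads upward. All these gene IDs, in and outside the block, passed the same limit of 10 reads, which weighs the FOG-3 libraries more. The differences between these shares were not tested. The 15 without a control read had 10 to 36 reads in FOG-3 libraries. The largest of them, member 17, had 16, 6, 7 and 7 reads there. The exact 95% counting interval of its pooled fold began at 1.27 with TMM and at 2.92 with total counts, and has no upper end. Taken against 3 reads over the whole control group, with the counting error of its own reads left out, the fold was 1.64 with TMM and 3.79 with total counts. Of the others, only member 19 had an interval that began above 1 with TMM, at 1.04. For most of the 15, those with at most 20 reads, the value against 3 control reads lay under 1 with TMM (0.456 to 0.911).

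The median pooled fold over all members, with gene IDs without a control read at this limit, was 0.900 with TMM, against 1.22 over the 4461 gene IDs outside the block with at least 10 reads. With total counts the medians were 2.08 and 2.82, and under top-ID scaling 3.54 and 4.79. At the limit stood 34.1% of the members and 24.3% of the gene IDs outside the block. These medians therefore depend on the limit and do not show that the block was recovered below the control level. Among gene IDs with 10 to 19 reads the median was 0.729 for the 19 members and 0.729 for the 1473 gene IDs outside the block, with TMM. In this range 10 of the 19 members had no control read and stand at the limit of 3 reads, so the median depends on that limit and its likeness is not a comparison of measured folds. With 20 to 49 reads, where 5 of 9 members stand at the limit, it was 1.37 for these and 1.31 for 1544 others. From 50 reads upward it was 0.733 for 16 members and 1.98 for 1444 others, and 37.5% of these members lay above 1, against 68.0% of the others. These are descriptions of lists chosen by reads, and no difference between them was tested.

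**Figure D4:**
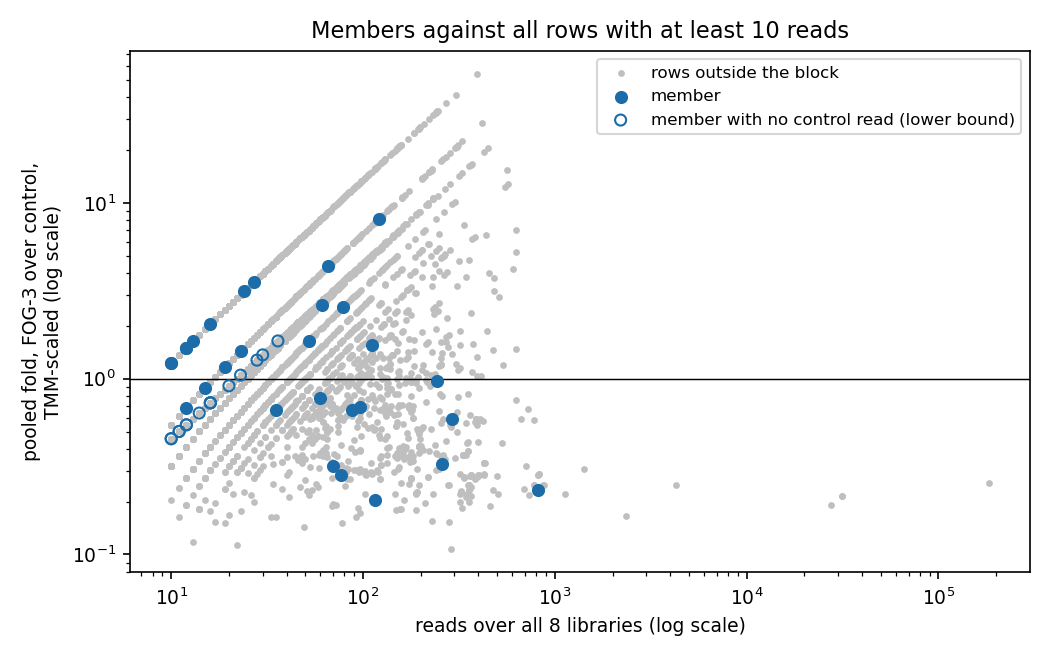
Pooled fold (FOG-3 over control, TMM-scaled, log axis) against reads over all 8 libraries (log axis) for all gene IDs with at least 10 reads. Members are in blue, with open circles for members with no control read. These circles are drawn at the fold against the limit set for the control reads of the whole group. The counting error of the members' own reads is left out, so the circles are not lower ends of the counting interval. The diagonal lines of points are gene IDs with the same small number of control reads. Members with few reads lie among the others, and 6 of the 16 members with at least 50 reads lie above a fold of 1.

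With every gene ID of at least 10 reads in the fit, so that all 44 members were tested, 6 members rose and 5 fell with TMM (edgeR, adjusted p under 0.05), against 22.0% and 4.77% of the 4505 gene IDs tested. The 6 were WBGene00195175 and members 13, 17, 19, 20 and 23. Member 13 had 23, 13, 7 and 21 reads in the FOG-3 libraries and 2 in controls, both in TTGT (log2 fold change 2.34 ± 0.81, edgeR adjusted p = 0.020). The other 4 had no control read, so that their fitted fold changes depend on the prior count. The 5 that fell were members 1, 3, 6, 11 and 12, and member 2 was no longer among them (adjusted p = 0.42). With total counts 22 members rose and 2 fell, against 52.9% and 1.93% of all. With DESeq2's size factors 20 rose and 2 fell, against 47.7% and 2.29%. With no filter and TMM 6 rose and 3 fell, against 7.75% and 1.08% of 12240 gene IDs. Under top-ID scaling 32 rose and 0 fell, with 33 members at an unadjusted p under 0.05, against 73.8% and 0.133% of all.

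The number of members with a read in a library was set by the same reads that chose them, and is a description. At an equal depth of 14964 reads, 26.4 ± 2.6 members (SD, n = 4) were expected with at least 1 read with FOG-3 and 12.1 ± 2.0 without antibody, and the groups did not overlap. As a share of all gene IDs with at least 10 reads expected at that depth, members made up 0.955% ± 0.085 with FOG-3 and 1.11% ± 0.14 without antibody, and the groups overlapped. Without thinning, 38 to 44 members had a read in a FOG-3 library and 11 to 26 in a control.

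Other ranges of gene numbers gave other splits in the same TMM fit. Of 56 tested gene IDs numbered from 44000 up to the block, 3 were higher and 45 lower. Of 8 tested gene IDs numbered above the block, 4 were higher and 4 lower, and of 811 numbered below 44000, 393 were higher and 189 lower. In the block 54.5% of the tested members were lower, against 80.4% of the tested gene IDs from 44000 up to the block and 23.3% of those below 44000. The differences between these ranges were not tested.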

How the data were processed

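The authors deposited raw read counts per gene ID for 8 iCLIP libraries. The submitters' processing notes name STAR 2.4.2 and HTSeq. Genome build, annotation, strand setting and collapsing of PCR copies: not given in the sources used here, so intervals and limits cover counting error only. Column names give the group and a tag but no replicate number. The design text calls the libraries biological replicates. The 2 rows that name no gene (2.75% to 13.0% of reads) were left out. Members, comparison ranges and tests were chosen with earlier results of these data known.

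The whole table was fitted with edgeR 4.0.16 in R 4.3.3 (TMM, group as the only term, default filter with minimum count 10 and minimum total 15, p adjusted over all gene IDs tested). SE is the size of the change over the square root of F. DESeq2 1.42.0 and limma 3.58.1 were alternatives. A fold against 0 control reads was set against 3 reads over the group. Named by ID were the 2 called members of smallest p in each direction (1 was higher).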

Additional observations from a re-analysis of the deposited data

Results flagged for a closer look

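Of 26 groups of 4 libraries examined with Dixon's test (the member share of reads, members at equal depth and the 11 tested members), 1 held a library apart from the rest, where chance gives about 1 in 20. It was the control TTGT for WBGene00195175, with log2(CPM + 50) of 6.45 from 2 reads, while the other controls had 0 reads. With those controls tied, Dixon's ratio is 1 for any number of reads in TTGT, so the rate of 1 in 20 does not apply to this group. TTGT is the deepest control, and 2 reads in it are 37.3 CPM, below the limit of 55.9 CPM that a count of 0 allows there.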

How the results depend on the processing

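No paired analysis was possible because the columns carry no replicate numbers. The 1 higher and 6 lower members were 3 and 2 with total counts, with the size factors of DESeq2 in edgeR and with DESeq2 itself, and 6 and 0 on the most abundant gene ID as scale. With no filter there were 6 and 3 of 44, with a minimum of 10 reads 6 higher of 44, and after thinning to equal depth 0 and 0 of 1 tested. Alternatives chosen after seeing the data combined that minimum with other scalings, giving 22 and 2 with total counts, 20 and 2 with the size factors of DESeq2, and 32 and 0 with the most abundant gene ID. Leaving out 1 library gave 1 to 3 higher (3 without CGGA, 2 without TTGT or TTAA) and 2 to 6 lower (2 without TTGT). Without TTGT the log2 fold change of WBGene00195175, then with no control read, was 7.19 and depends on the prior count. The fall of WBGene00197433 did not pass after thinning (-0.43, edgeR adjusted p = 0.38). The members' share of reads (FOG-3 minus control, 0.127 percentage points) was 0.243 without member 1. It turned to -1.01 with the 10 gene IDs of most reads out of the total and to -0.14 without both, the latter chosen after seeing the data. Members with a read differed by 14.3 at equal depth and 26.2 without thinning. Beyond fewer reads and other numbers tested, the cause was not tested. The depth of the controls limits most members, 30 of which had at most 3 control reads.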
